A study of Mus musculus with 8 samples.

Results

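The miRNAs of the imprinted Dlk1-Dio3 locus on mouse chromosome 12 were examined in bone marrow LSK cells, sorted as Lin-cKit+Sca1+, a gate that contains the haematopoietic stem cells and their earliest progeny. Members were all probes whose miRNA name, without species, arm, copy number and form, was one of 41 names known from this locus. Of the 41, 40 had a probe for the mature form (46 probe names of 433 on the array) and 30 also had a probe for the precursor (30 of 274), while miR-654 had neither. Both groups were 10-week-old C57BL/6 females homozygous for floxed Tsc1: 4 Cre-negative littermates (Ctrl) and 4 mice with Mx1-Cre (Tsc1 cKO), with 1 array per mouse. All 8 had received 7 injections of 400 µg pIpC (2 mg/ml), a double-stranded RNA analogue that switches on Mx1-Cre through interferon, and were sampled 10 days after the last injection. The controls therefore share the exposure to pIpC but lack Cre itself, and Mx1-Cre acts in other tissues of the mouse besides blood. Raptor alleles are also mentioned in the text on the design, but no genotype label names them, and the groups are taken as the genotype labels give them.

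On the maternal copy of the locus the non-coding RNAs Meg3 (also called Gtl2), antisense Rtl1, Rian and Mirg are made, and hairpins within this long transcription unit yield one of the largest miRNA clusters of the mouse, while Dlk1, Rtl1 and Dio3 are made from the paternal copy. The nuclease Drosha cuts a precursor hairpin out of the primary transcript, Dicer cuts the loop away, and one or both arms of the hairpin become mature miRNAs that recognise targets through the seed at their 5′ end. The locus is well known for its activity in brain and placenta, and in mice its maternal non-coding RNAs have been tied to the upkeep of long-term haematopoietic stem cells through restraint of PI3K-mTOR signalling. Tsc1 restrains mTORC1, so its loss raises the activity of this pathway.

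The sequences of the probes that carried signal come first, because their arms and neighbours recur below. Intensities are given on the log2 scale, the level shared by most dim probes of an array is taken as its background, and bright stands for a mean over 8 arrays of more than 1 log2 unit above it. The mature probes of miR-329, miR-494, miR-341, miR-679 and miR-667 were bright. Their names give no arm, so both arms are printed 5′ to 3′ from RefSeq (GRCm38.p6), with the seed (bases 2 to 8) in capitals.
miR-341-5p: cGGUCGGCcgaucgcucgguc
miR-341-3p: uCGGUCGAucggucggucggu
miR-329-5p: aGAGGUUUucugggucucuguu
miR-329-3p: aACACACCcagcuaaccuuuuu
miR-494-5p: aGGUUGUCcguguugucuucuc
miR-494-3p: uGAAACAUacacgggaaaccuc
miR-679-5p: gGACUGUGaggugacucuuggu
miR-679-3p: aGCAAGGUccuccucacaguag
miR-667-5p: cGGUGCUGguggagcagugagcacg
miR-667-3p: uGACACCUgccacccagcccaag
The precursor probes of miR-673, miR-323, miR-543 and miR-495 were bright. Their hairpins (named mmu-mir, for the mouse precursor) lie on the plus strand at chr12:109571990-109572080, chr12:109712508-109712593, chr12:109717258-109717333 and chr12:109718754-109718816, and are printed with both mature arms in capitals.
mmu-mir-673: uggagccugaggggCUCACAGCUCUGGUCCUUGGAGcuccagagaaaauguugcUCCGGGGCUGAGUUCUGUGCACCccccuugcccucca
mmu-mir-323: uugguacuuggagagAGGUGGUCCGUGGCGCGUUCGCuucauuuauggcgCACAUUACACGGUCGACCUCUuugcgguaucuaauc
mmu-mir-543: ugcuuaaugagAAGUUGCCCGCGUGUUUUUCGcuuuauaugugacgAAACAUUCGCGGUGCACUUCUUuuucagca
mmu-mir-495: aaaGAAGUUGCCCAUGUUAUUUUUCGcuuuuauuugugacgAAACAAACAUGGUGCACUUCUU
The 3 miRNAs with the smallest p for the balance of mature and precursor form were miR-329, above, miR-377 and miR-487b. For miR-487b the RefSeq entries used gave only the 5p arm. Its probe name gives no arm, so the probe may read the arm that is not printed. The arms given are as follows (seed in capitals).
miR-377-5p: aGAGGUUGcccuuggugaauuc
miR-377-3p: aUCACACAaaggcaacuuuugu
miR-487b-5p: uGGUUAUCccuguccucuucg
The RefSeq entries used gave 78 arms of the members, which held 75 distinct seeds. For miR-376c, miR-487b and miR-539 only the 5p arm was among them. For miR-485 it was only the 3p arm, although the array also has a probe for miR-485-5p. AUGUAAC was shared by miR-379-3p and miR-411-3p, UGGAUAU by miR-376b-5p and miR-376c-5p, and GGUUGUC by miR-410-5p and miR-494-5p. Beyond the seed, the 3p arms of miR-543 and miR-495 shared a run of 12 letters. Of 1483 pairs of same-side arms of different members in this set 6 had a run of at least 12, and the median longest run was 4. Probe sequences were not used here, so whether 1 of these RNAs is also read by the other's probe was not tested.

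Some properties of the arrays bear on all members. The background lay between 14.55 and 15.01 on the log2 scale and was higher for replicates 1 and 2 of either group than for replicates 3 and 4. Each of these sets, called samples 1-2 and samples 3-4 here, holds 2 mice per group and comes from the data, not from the labels. Total mature intensity was lowest in Tsc1 cKO 4 (27732800) and highest in Ctrl 2 (63876700), and Tsc1 cKO 4 had 74 bright mature probes against 94 to 113 on the other arrays. The labels name scanner 4000B for 6 samples, 4001B for Tsc1 cKO 3 and 4002B for Tsc1 cKO 4. The array medians differed by -0.04 (mature) and -0.03 (precursor) log2 units between the groups, with 2-sided exact permutation p = 0.714 and 0.629, where the smallest possible p is 0.0286. Of 15 mature probes for haematopoietic miRNAs 8 were bright, among them miR-223, miR-142-5p, miR-155 and miR-150. Of the mature markers of other cells, 0 of 3 erythroid and 1 of 12 stromal or endothelial probes (miR-126-5p, also haematopoietic) were bright. Neural markers gave 2 of 16 (miR-128a and miR-7-2), muscle 0 of 11 and liver 0 of 1. Among precursor probes 1 of 1 haematopoietic (miR-181a-2), 1 of 1 stromal or endothelial (miR-199a-2, read for both forms) and 1 of 4 muscle (miR-208) were bright. Erythroid precursor probes gave 0 of 2, neural 0 of 8 and liver 0 of 1. Signal was also summed over the mature probes of a list in multiples of background. A probe at background counts as 1, so a list of dim probes sums to about its number of probes. Haematopoietic probes reached 51.4 to 97.8 in Ctrl and 29.1 to 98.7 in Tsc1 cKO. The erythroid sum was 2.46 to 3.72 in Ctrl and 3.42 to 6.57 in Tsc1 cKO, and that of stromal or endothelial probes 14.0 to 17.9 and 11.2 to 15.6. Neural sums were 20.8 to 23.1 and 19.7 to 22.8, muscle sums 10.9 to 11.4 and 9.58 to 11.3, and the liver probe 0.256 to 1.11 and 0.562 to 1.16. Of the 15 haematopoietic mature probes 12 were lower in Tsc1 cKO (64.9% of all 433), 2 of them at unadjusted p under 0.05 by limma. Of the 3 erythroid mature probes 1 was lower and 2 were higher. Their log2 fold changes ran from -0.28 to 1.35, the highest of all 433 mature probes. None of these passed the adjusted threshold. The part of these cell types in the values below was not tested, and in bulk RNA fewer cells of a type and less RNA per cell cannot be told apart.

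Most mature Dlk1-Dio3 probes lay at the background of the arrays. Of the 46 probes 35 (76.1%) were within 0.25 log2 units of it, against 60.3% of all 433, and 5 (10.9%) were bright, against 96 of 433 (22.2%). miR-329 lay 5.30 log2 units above background, miR-494 4.47, miR-341 1.82, miR-679 1.52 and miR-667 1.41. Just below the threshold came miR-370 at 0.87, miR-539 at 0.58 and miR-377 at 0.54. Measured against the array median instead, 8 of 46 probes lay above it on all 8 arrays (107 of all 433) and 18 lay below it on all 8 (91 of 433). The 8 were the 5 bright probes with miR-370, miR-377 and miR-410. On a single array 15 to 17 of the 46 exceeded the median and 4 to 7 were bright. Probes differ in how strongly they respond, so a height above background does not rank the miRNAs by abundance.

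**Figure D1:**
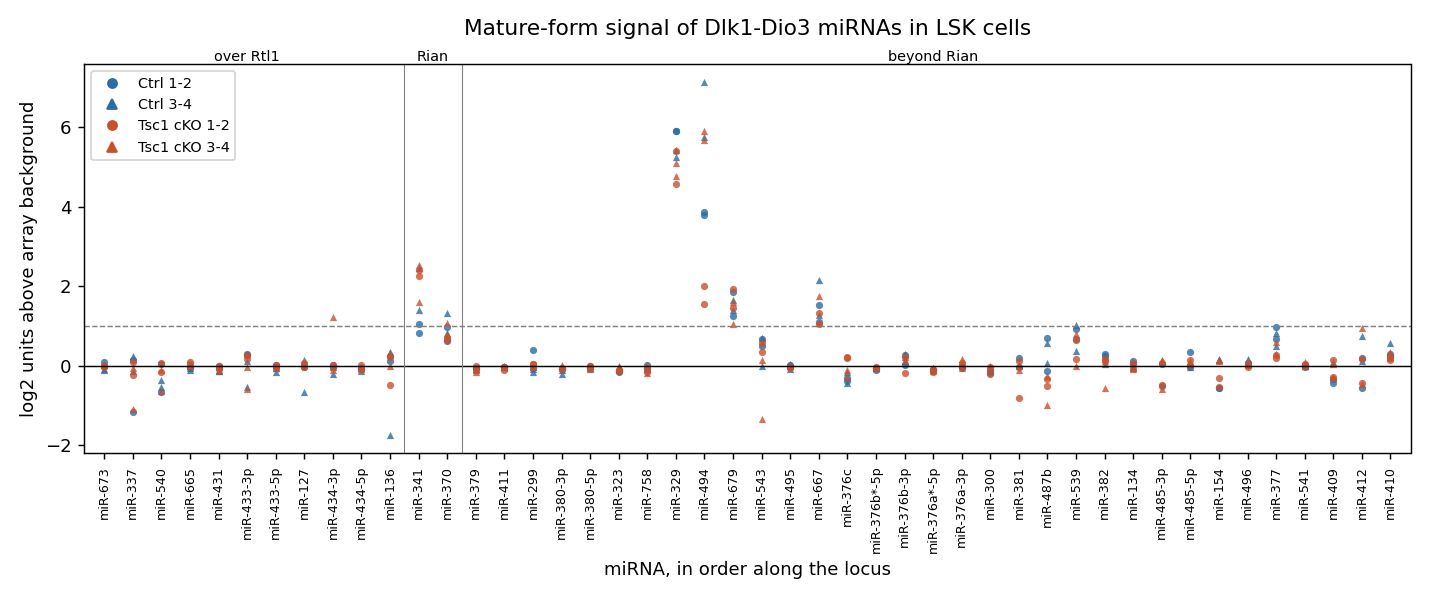
Signal of the 46 mature Dlk1-Dio3 probes in log2 units above the background of each array, in the order of their hairpins along chromosome 12, with 1 point per mouse (circles, samples 1-2, and triangles, samples 3-4). The dashed line marks 1 log2 unit, the threshold for a bright probe, and miR-341, miR-329, miR-494, miR-679 and miR-667 have most of the points above it.

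Of the 9 bright miRNAs 7 lay in a short stretch of the locus, and miR-341 over Rian and miR-673 over Rtl1 lay outside it. All 41 hairpins lie on the plus strand over 171.806 kb, 9 of them over the paternally expressed gene Rtl1, 2 over Rian and 30 beyond Rian. From miR-323 to miR-667 there are 8 hairpins within 7.59 kb, in the order miR-323, miR-758, miR-329, miR-494, miR-679, miR-543, miR-495 and miR-667. In 7 of them the mature or the precursor probe was bright, and miR-758 was bright in neither form. These 7 are also all of the bright miRNAs among the 30 beyond Rian. The stretch was picked after the values were seen, so this is a description without a test. Only 174 bases separate the hairpin of miR-494 from that of miR-679, both bright as mature forms.

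The 9 hairpins over Rtl1 gave no bright mature probe. In mice several of them, among them miR-127, miR-136, miR-431, miR-433 and miR-434, pair perfectly with the Rtl1 transcript and cut it. Their 11 mature probes had a median of -0.06 log2 units relative to background. Over Rian, miR-341 was bright and miR-370 lay at 0.87. The 33 mature probes beyond Rian, a region that holds Mirg and the cluster from miR-379 to miR-410, had a median of -0.0014, with 4 bright. miR-134, which in rat neurons limits the size of dendritic spines, lay at -0.0014, and miR-379 at -0.08. Between the GC content of the whole hairpin and the level, Spearman's rho was -0.03 over 46 mature probes and 0.07 over 30 precursor probes that share the same arrays. Most of these probes lay at background, so rho cannot decide whether the level follows GC content. Hairpins of bright mature probes had 35.3% to 62.0% GC and those of the others 29.1% to 61.5%.

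Precursor probes gave 4 bright members, other miRNAs than the mature probes gave. miR-543 lay 5.12 log2 units above background, miR-495 2.74, miR-323 2.65 and miR-673 1.06, and miR-667 at 0.34 and miR-539 at 0.25 came next. This is 4 of 30 (13.3%), against 35 of all 274 (12.8%). The same 4 were above the array median on all 8 arrays (44 of 274 in all), and 3 of 30 were below it on all 8 (22 of 274). Of the 30 probes 24 (80.0%) lay within 0.25 log2 units of background, against 73.4% of all. On a single array 3 to 5 of the 30 were bright and 13 to 16 exceeded the median.

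**Figure D2:**
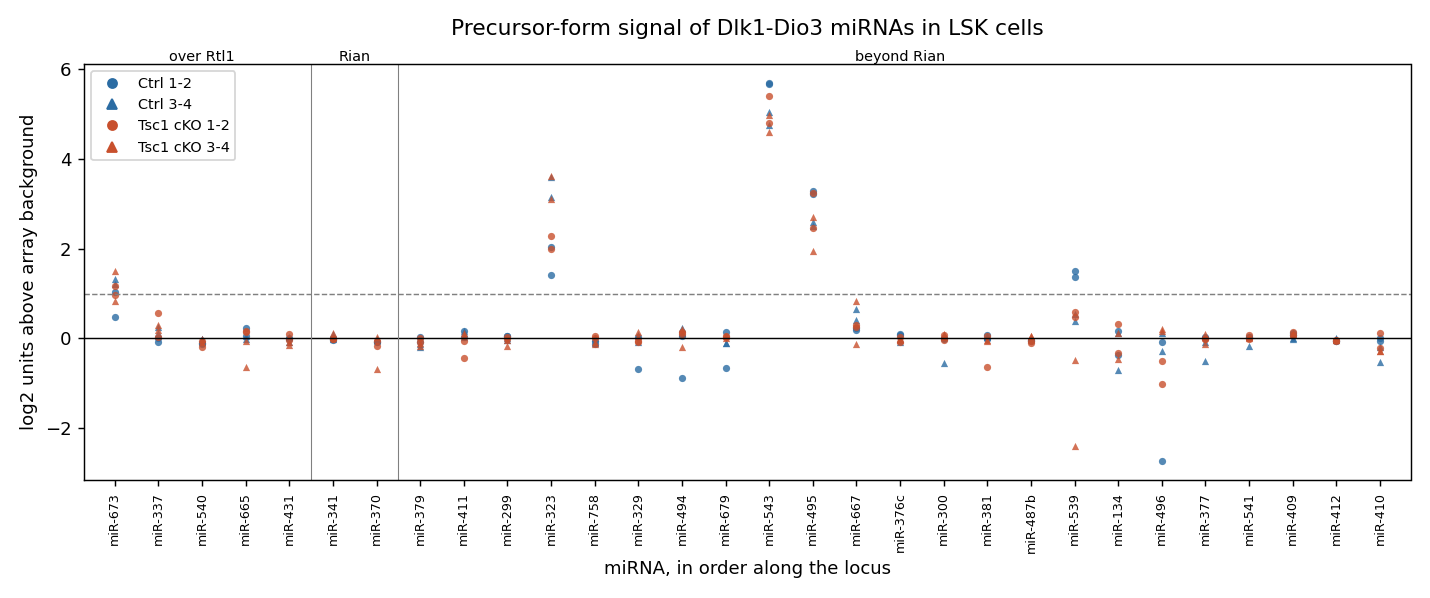
Signal of the 30 precursor Dlk1-Dio3 probes in log2 units above the background of each array, in genomic order, with 1 point per mouse. The points above the dashed threshold of 1 log2 unit belong to miR-673, miR-323, miR-543, miR-495 and, in Ctrl 1 and Ctrl 2, miR-539.

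No member was bright in both forms. Among the 30 miRNAs with both probes 5 were bright as mature form only, 4 as precursor only and 21 in neither. Among all 264 miRNAs with both probes 13 were bright in both, 57 as mature form only, 19 as precursor only and 175 in neither, so 14.6% of the 89 bright in either were bright in both. Relative to background the mature probe of miR-543 had a mean of 0.20 log2 units, that of miR-495 -0.01, that of miR-323 -0.09 and that of miR-673 -0.0082. The precursor probe of miR-329 had -0.07, that of miR-494 -0.03, that of miR-341 0.03, that of miR-679 -0.07 and that of miR-667 0.34. The labelling primed total RNA at random and did not select by length, so a mature probe can also be reached by longer RNA that holds its sequence, and the share of such signal was not tested.

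**Figure D3:**
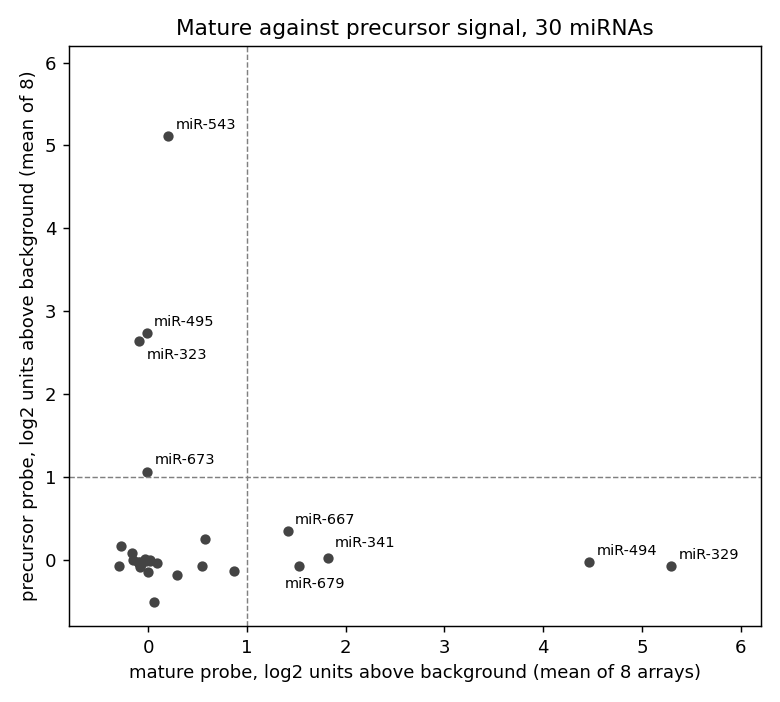
Mean signal over 8 arrays of the mature probe (x axis) and the precursor probe (y axis) of 30 Dlk1-Dio3 miRNAs, both in log2 units above background, with dashed lines at 1. The upper right field is empty, because the 9 bright miRNAs lie along one axis each.

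Both arms were on the array for 6 hairpins, and neither arm of any of them was bright. These were miR-433 and miR-434 over Rtl1 and miR-376a, miR-376b, miR-380 and miR-485 beyond Rian. Transcripts of the miR-376 cluster are edited from A to I in the seed in mouse brain, which arrays of this kind are not designed to read. The 12 arms had means between -0.13 (miR-485-3p) and 0.14 (miR-376b-3p) log2 units relative to background. The log2 difference of 5p minus 3p arm in Tsc1 cKO minus that in Ctrl ran from -0.29 (miR-434, SE 0.30) to 0.15 (miR-485, SE 0.21). By limma 0 of 6 pairs had an adjusted p under 0.05 (lowest 0.859) and 0 an unadjusted p under 0.05, as did 0% of all 47 pairs on the array.

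The mature probes were then compared between Tsc1 cKO and Ctrl to ask whether loss of Tsc1 shifts the miRNAs of the locus. Of 46 members 27 (58.7%) were lower and 19 higher in Tsc1 cKO, where 64.9% of all 433 probes were lower. The median log2 fold change was -0.035 for members, close to that of -0.043 over all 433. limma called 0 members at adjusted p under 0.05 (lowest 0.690), and 0% of all 433. At unadjusted p under 0.05 there was 1 member, miR-487b, lower in Tsc1 cKO, where 3.93% of all probes were lower at this level. No member was higher at this level (0.462% of all). The groups lay fully apart in 0 of 46 members, against 0.924% of all probes in the lower and 0% in the higher direction. Since 35 of the 46 lie at background, the direction of most members reads the background of the arrays, and after quantile normalization 17 of 46 were lower. Without Tsc1 cKO 4 the count was 15 and without Ctrl 1 it was 16.

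miR-329 had a log2 intensity of 20.91, 20.91, 20.05 and 19.87 in Ctrl 1 to 4 and of 20.37, 19.59, 19.73 and 19.31 in Tsc1 cKO 1 to 4. The Tsc1 cKO mice tended to the lower end, but Tsc1 cKO 1 lay above Ctrl 3 and Ctrl 4, so the groups overlapped. The fold change was -0.69 on the log2 scale (SE 0.32, 1.61-fold lower, adjusted p = 0.902 by limma), -0.93 in samples 1-2 and -0.44 in samples 3-4.

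miR-494 was the mature member whose mice differed most. Its log2 intensity was 18.87, 18.80, 20.36 and 21.78 in Ctrl 1 to 4 and 16.97, 16.56, 20.52 and 20.23 in Tsc1 cKO 1 to 4. Samples 3 and 4 of both groups were higher than samples 1 and 2, opposite to the brightness of the arrays. Relative to background samples 3-4 exceeded samples 1-2 by 3.32 log2 units, the largest such value among all 433 mature probes. The fold change was -1.39 (SE 0.99, adjusted p = 0.9999 by limma), -2.07 in samples 1-2, where both Tsc1 cKO mice lay below both Ctrl mice, and -0.70 in samples 3-4, where the groups overlapped. On scanner 4000B alone, which leaves Tsc1 cKO 1 and 2 against all Ctrl mice, it was -3.19. That value sets samples 1-2 of Tsc1 cKO against both sets of Ctrl, so the gap between the sets enters it. The cause of the gap between the sets was not tested.

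miR-341, made within Rian, had the only positive fold change among the bright mature members. Its log2 intensity was 16.05, 15.82, 16.02 and 17.08 in Ctrl 1 to 4 and 17.21, 17.43, 17.14 and 16.14 in Tsc1 cKO 1 to 4. Of the Tsc1 cKO mice 3 lay above every Ctrl mouse, while Tsc1 cKO 4 lay just above the 3 low Ctrl mice. The fold change was 0.74 (SE 0.35, 1.67-fold higher, adjusted p = 0.902 by limma), 1.38 in samples 1-2 and 0.09 in samples 3-4.

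miR-679 had a log2 intensity of 16.85, 16.23, 16.26 and 16.03 in Ctrl and of 16.42, 16.93, 16.21 and 15.60 in Tsc1 cKO, and a fold change of -0.06 (SE 0.30). miR-667 stood at 16.53, 16.08, 15.89 and 16.80 in Ctrl and at 16.29, 16.07, 16.37 and 15.62 in Tsc1 cKO, a fold change of -0.23 (SE 0.27). Both overlapped widely, and Tsc1 cKO 4 was the lowest mouse for each. Their standard errors exceeded the fold changes, so differences of this size cannot be told from 0 with 4 mice a group.

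miR-487b and miR-377 had the smallest p among the dim members. miR-487b stood at 14.85, 15.70, 14.68 and 15.20 in Ctrl and at 14.46, 14.69, 14.36 and 13.57 in Tsc1 cKO. Tsc1 cKO 2 was just above Ctrl 3 and all other Tsc1 cKO mice were below every Ctrl mouse. The fold change was -0.84 (SE 0.31, unadjusted p = 0.0207, adjusted p = 0.690 by limma), but the probe lay 0.30 log2 units above background in Ctrl and at -0.51 in Tsc1 cKO, so its size is uncertain. miR-377 stood at 15.97, 15.66, 15.44 and 15.13 in Ctrl and at 15.16, 15.28, 15.21 and 14.84 in Tsc1 cKO, with a fold change of -0.43 (SE 0.23, adjusted p = 0.970 by limma). It is encoded in Mirg, at the far end of the cluster.

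**Figure D4:**
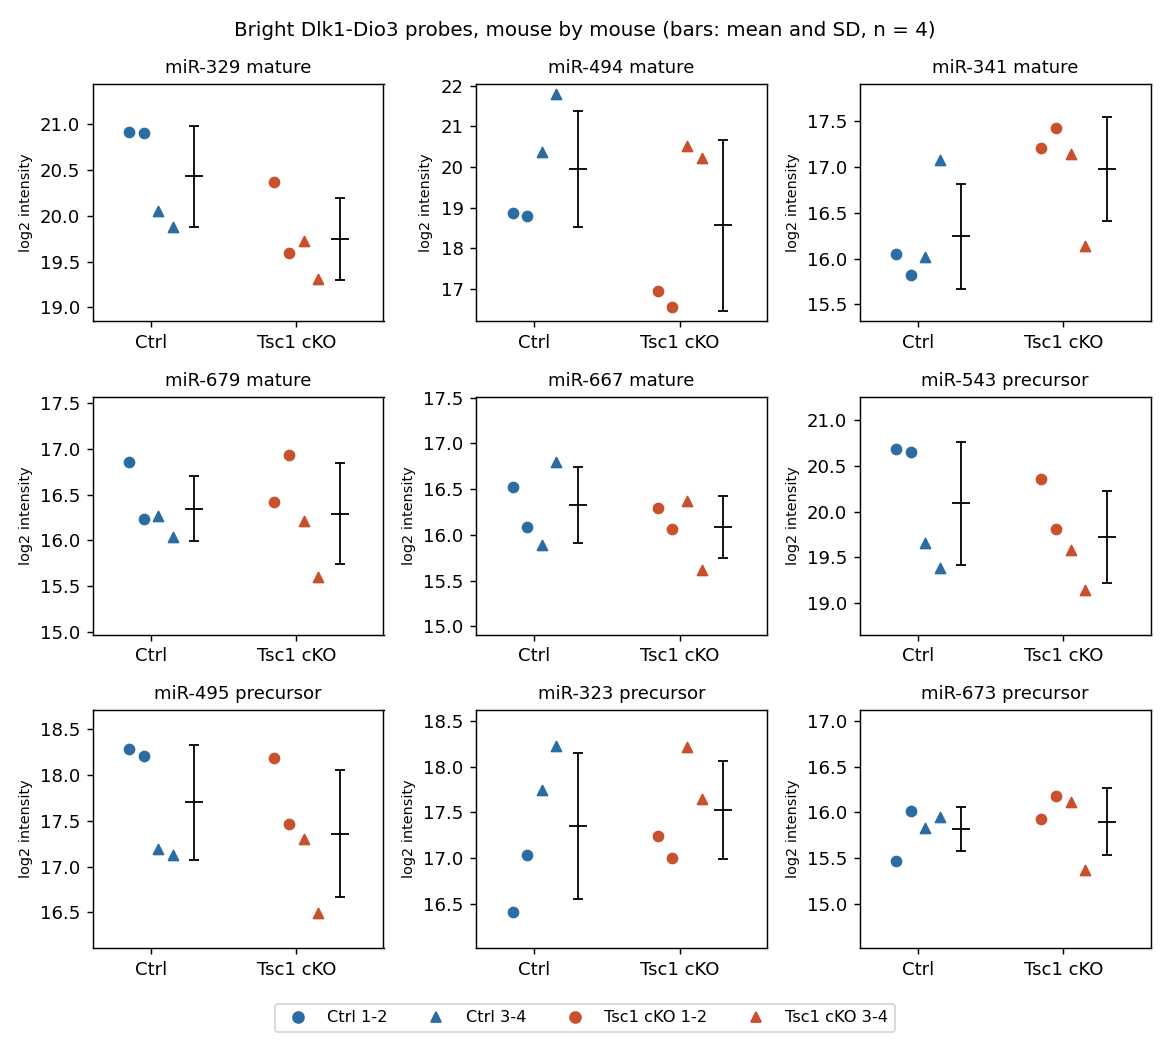
Log2 intensity of the 9 bright Dlk1-Dio3 probes in each mouse, with mean and SD (n = 4) beside the points; circles are samples 1-2 and triangles samples 3-4. The groups overlap in every panel, and in the panel for mature miR-494 the triangles of both groups lie above the circles.

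Precursor probes were compared to ask the same of RNA that holds the hairpin. The labelling did not select by length, so they can read longer transcripts as well as the precursor that Dicer cuts. Of 30 members 16 were lower and 14 higher in Tsc1 cKO (59.1% of all 274 were lower), with a median log2 fold change of -0.01 against -0.03 over all. limma called 0 members at adjusted p under 0.05 (lowest 0.999), and 0% of all, and 0 at unadjusted p under 0.05, where 2.55% of all precursor probes were lower. The groups lay apart in 0 of 30 members, against 1.09% of all in the lower direction. Without Tsc1 cKO 4 the count of lower members was 7 and without Tsc1 cKO 3 it was 9.

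Precursor miR-543 had a log2 intensity of 20.68, 20.65, 19.66 and 19.38 in Ctrl and of 20.36, 19.81, 19.58 and 19.14 in Tsc1 cKO (fold change -0.37, SE 0.35). Precursor miR-495 stood at 18.29, 18.21, 17.20 and 17.12 in Ctrl and at 18.19, 17.47, 17.30 and 16.49 in Tsc1 cKO (-0.34, SE 0.38). Both were higher in samples 1-2 than in samples 3-4 within each group, with the groups overlapping. Precursor miR-323 went the other way, with 16.41, 17.03, 17.75 and 18.22 in Ctrl and 17.24, 17.00, 18.22 and 17.65 in Tsc1 cKO (0.17, SE 0.39). Relative to background its samples 3-4 exceeded samples 1-2 by 1.43 log2 units, the largest value of the 274 precursor probes, as mature miR-494 had among mature probes. Precursor miR-673 stood at 15.47, 16.01, 15.83 and 15.95 in Ctrl and at 15.93, 16.18, 16.12 and 15.37 in Tsc1 cKO (0.08, SE 0.23).

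Precursor miR-539 had the lowest fold change of its whole table without being bright. It stood at 16.50, 16.35, 14.99 and 15.16 in Ctrl and at 15.44, 15.61, 12.21 and 14.06 in Tsc1 cKO. Ctrl 1 and 2 were the highest, and Tsc1 cKO 3 lay 2.40 log2 units below the background of its array. The fold change was -1.42 (SE 0.66, adjusted p = 0.999 by limma) and -0.71 without Tsc1 cKO 3. It rests on a probe that averaged 0.95 log2 units above background in Ctrl and -0.45 in Tsc1 cKO. The other precursors with the smallest p, miR-381 (-0.23, SE 0.21) and miR-411 (-0.20, SE 0.19), lay at background.

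**Figure D5:**
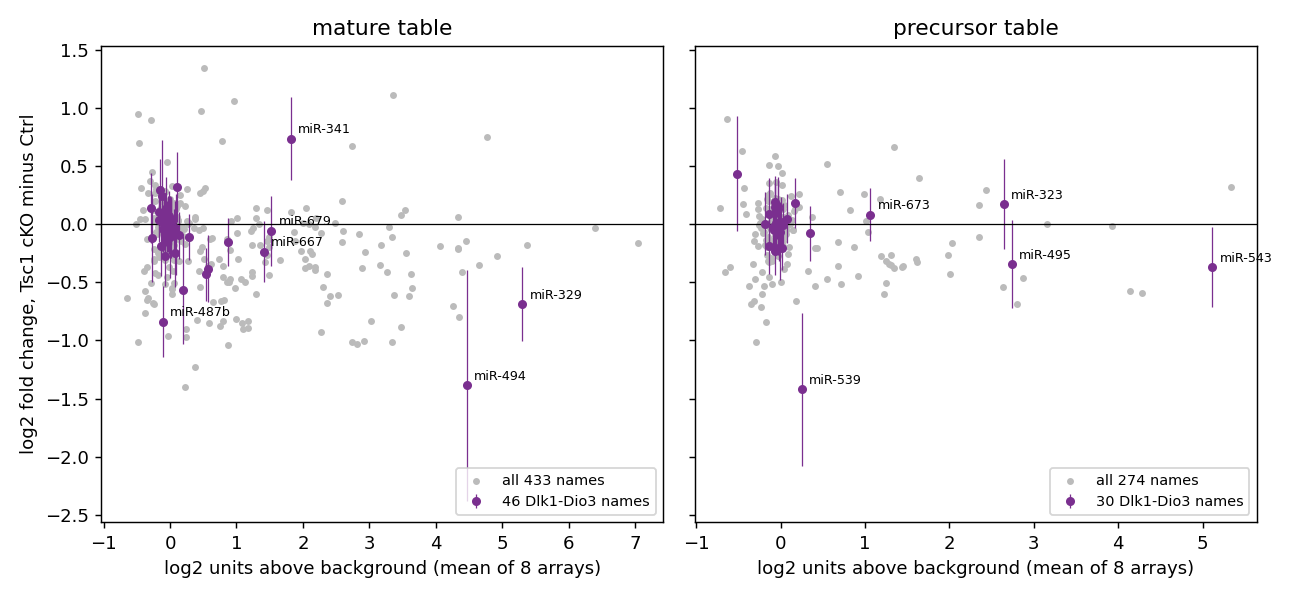
Log2 fold change of Tsc1 cKO against Ctrl (y axis) plotted against the mean height over background (x axis) for mature (left) and precursor probes (right), with Dlk1-Dio3 members in purple (bars, SE) among all probes in grey. Most members cluster around 0 at background, and the named ones include miR-494 at -1.39 and miR-341 at 0.74.

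The balance of mature and precursor form was taken per mouse as the log2 difference of both probes. Of 30 members 18 had a lower balance in Tsc1 cKO (53% of all 264 were lower), with a median of -0.06 against -0.02 over all. limma called 0 at adjusted p under 0.05 (lowest 0.328), and 0% of all. At unadjusted p under 0.05 there were 3 members, miR-377, miR-487b and miR-329, all lower, where 5.68% of all were lower and 1.14% higher. In 1 member, miR-487b, the groups lay apart in the lower direction, against 3.03% of all, and in 0 in the higher direction, against 1.89%. After quantile normalization 3 members had an unadjusted p under 0.05 by limma (21 of all 264). They were miR-487b, lower, and miR-341 and miR-376c, both higher, so miR-377 and miR-329 were no longer among them.

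For miR-487b the mature probe exceeded the precursor probe by -0.08, 0.75, 0.06 and 0.59 log2 units in Ctrl and by -0.44, -0.21, -0.31 and -1.03 in Tsc1 cKO. Every Tsc1 cKO mouse lay below every Ctrl mouse, and the balance differed by -0.83 (SE 0.26, unadjusted p = 0.0130, adjusted p = 0.328 by limma). For miR-377 the balance was 0.93, 0.67, 0.90 and 1.00 in Ctrl and 0.21, 0.28, 0.71 and 0.20 in Tsc1 cKO. Tsc1 cKO 3 lay within the Ctrl range and the others below it, with a difference of -0.52 (SE 0.15, unadjusted p = 0.0102, adjusted p = 0.328 by limma). For miR-329 it was 6.59, 5.89, 5.51 and 5.17 in Ctrl and 5.46, 4.65, 5.07 and 4.62 in Tsc1 cKO, with overlap, and differed by -0.84 (SE 0.33, unadjusted p = 0.0381, adjusted p = 0.592 by limma). In all 3 the precursor probe lay at background, with fold changes of -0.01 (miR-487b), 0.10 (miR-377) and 0.15 (miR-329), so the balance mostly carries the mature probe. In the opposite direction miR-341 had 0.75 (SE 0.37) and miR-376c, whose probes both lay at background, 0.36 (SE 0.16).

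Other miRNAs of the locus outside the 41 names had 5 mature probes (miR-666, miR-369-5p, miR-369-3p, miR-770 and miR-668) and 3 precursor probes, none of them bright, and 4 of the 5 and 2 of the 3 were lower in Tsc1 cKO. miR-668, a miRNA that can form without the Drosha partner DGCR8 in mouse cells, stood at 16.10, 16.09, 15.31 and 16.41 in Ctrl and at 14.84, 15.27, 15.36 and 14.93 in Tsc1 cKO. Only Ctrl 3 fell within the range of the Tsc1 cKO mice. The fold change was -0.88 (SE 0.27, unadjusted p = 0.00785, adjusted p = 0.605 by limma). Its balance of mature and precursor form was 1.00, 1.63, 1.40 and 1.75 in Ctrl and -0.16, 0.15, 0.79 and 0.41 in Tsc1 cKO. Here the groups lay apart, as in 3.03% of all 264 balances in the lower direction. The difference was -1.15 (SE 0.25, unadjusted p = 0.00188, adjusted p = 0.328 by limma). Its precursor probe was dim, at -0.52 in Ctrl 2 and -0.70 in Ctrl 3 relative to background and near background in the other mice. That probe had a fold change of 0.27 (SE 0.27), so the balance does not carry the mature probe alone. miR-666 (0.17, SE 0.27) and miR-369-3p (-0.10, SE 0.21) lay at background. Of the probes listed for imprinted miRNAs from other loci 1 of 10 mature and 1 of 7 precursor probes was bright, both of them miR-483 from Igf2. In Tsc1 cKO 7 of 10 and 4 of 7 were lower. The list named miR-467 and miR-669 of the Sfmbt2 cluster, but it did not count miR-467b and miR-669c, whose mature probes were bright.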

How the data were processed

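Per the labels' protocols, 5 µg of total RNA per mouse was biotin-labelled by reverse transcription with random octamer primers, hybridised to a 1-colour miRNA array and read on an Axon scanner. The authors deposited linear intensity values, 1 table for mature and 1 for precursor probes, with neither scaling nor background treatment given in the sources used here. Each of the 6568 values was a multiple of 0.5 (lowest 4340.5), and a further table equalled the mature table in 4168 of 4168 cells. The number of per-sample columns not used was 0.

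Values were taken as log2(value + 1), and 521 mature and 300 precursor probes were averaged by name to 433 and 274 names. As background served the mode of the log2 values of an array, both tables together. limma 3.58.1 in R 4.3.3 (lmFit, eBayes, Benjamini-Hochberg threshold 0.05, no block) was run over all names of a table, as Tsc1 cKO minus Ctrl. Its inputs were mature values, precursor values, the difference of 264 matched forms, and the difference of 47 pairs of arms. Some hairpins, such as that of miR-126, entered the pairs of arms repeatedly. The 4 precursor names read for both forms were left out of the match. Array medians were compared by exact permutation over 70 assignments. The code was tested on simulated data. Figures used Python 3.11.15 with matplotlib 3.10.9. The number of arrays limits the precision.

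Members and all lists (other miRNAs of the locus, imprinted miRNAs elsewhere, and haematopoietic, erythroid, stromal or endothelial, neural, muscle and liver markers) were chosen with earlier results of these data known. Named were all bright members, the 5 members with the smallest p in each of the mature, precursor and balance comparisons, members with both arms or with groups that lay apart, and up to 4 other miRNAs of the locus. Hairpins and arms were matched by symbol to RefSeq (GRCm38.p6), where all 41 had an entry.

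Equal replicate numbers were checked as pairs: the correlation of their deviations from the group means was 0.10, 0.35, 0.09 and 0.33 in the mature table and 0.14, 0.13, 0.02 and -0.03 in the precursor table. Not all exceeded 0.1, and the numbers were not treated as pairs. The labels call the samples biological replicates.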

Additional observations from a re-analysis of the deposited data

Results flagged for a closer look

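Single mice stood apart from the other 3 of their group in 5 of 120 groups of 4 values tested for the named probes. Chance gives about 1 in 20. The 120 count each group both as log2 intensity and relative to the background of its array. All 5 were flagged relative to background, so their share on that scale alone is larger. Mature miR-434-3p lay 1.24 log2 units above background in Tsc1 cKO 3 (the other 3 mice -0.09 to 0.01), and at -0.22 in Ctrl 4, where the other Ctrl mice had -0.02 to 0.01. Mature miR-376b*-5p lay at -0.10 in Ctrl 2 (others -0.06 to -0.05) and mature miR-485-3p at -0.50 in Ctrl 2 (others 0.06 to 0.12). Mature miR-666 lay at -0.57 in Ctrl 4, against 0.11 to 0.13 in the other Ctrl mice.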

How the results depend on the processing

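No member and no other probe passed the adjusted threshold in the mature, precursor, balance or arm comparison under any alternative run, omission of each mouse included. For mature members the lowest adjusted p among the alternatives that kept all mice was 0.321, with replicate number as a block. Over all 433 mature names the lowest adjusted p by limma in that run was 0.058, just above the threshold. The replicate block gave 0 calls in each table and 48 mature names at unadjusted p under 0.05 (4 members, miR-377, miR-329, miR-487b and miR-494), 15 precursor names (miR-539) and 29 balances. Samples 1-2 and 3-4 as a block gave 38, 12 and 26. The labels do not say that equal numbers mark pairs, and not every sample correlated best with its own number.

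The count of lower mature members (27) was 17 after quantile normalization, 4 of 5 among bright names, 10 on scanner 4000B alone, and 15 to 38 on omission of 1 mouse. That of lower precursor members (16) was 2 of 4 among bright names, 5 on scanner 4000B alone, and 7 to 22 on omission of 1 mouse. Scanner 4000B alone leaves Tsc1 cKO 1 and 2, with the higher background, against Ctrl mice of both sets. Scanner and sample set therefore cannot be told apart in these counts. The median balance ran from -0.060 to -0.0036 on omission. Bright mature members numbered 8 at a threshold of 0.5 log2 units, 2 at 2 units and 12 above the mean array median, and precursor members 9 above the median.

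Some small fold changes turned sign. Mature miR-679 had 0.079 after quantile normalization, 0.13 in samples 1-2, 0.33 on scanner 4000B alone, and -0.27 to 0.17 on omission. Precursor miR-673 had -0.15 in samples 3-4 (-0.031 to 0.26 on omission), miR-323 -0.052 in samples 3-4 and -0.23 on scanner 4000B (-0.14 to 0.46), and miR-495 0.054 after quantile normalization and 0.13 on scanner 4000B. For the arms, miR-434 had 0.055 in samples 1-2 and 0.0071 on scanner 4000B (-0.41 to 0.020 on omission), miR-433 -0.11 on scanner 4000B (-0.029 to 0.30), miR-376b -0.0029 to 0.15 on omission, and miR-485 -0.10 in samples 1-2. miR-666 ran from -0.059 to 0.30 on omission, and miR-369-3p had 0.072 on scanner 4000B. The cause was not tested, and for the values on scanner 4000B alone scanner and sample set cannot be told apart. Bright names alone gave no value for arms or member balances.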
